A study of Mus musculus with 6 samples.

Results

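The genes of inflammatory macrophage activation described here are Nos2, Slc7a2, Acod1, Ptgs2, Ptges, Tnf, Saa3, Lcn2, Clec4e and Clec4d, 10 of the 35976 genes in a count table from mouse brown adipose tissue (BAT). They were chosen by symbol, as genes of myeloid activation, with their levels in these same libraries already known. Acod1 and Saa3 were chosen because they had some of the largest differences. Every comparison of their levels between the groups is therefore a description, and no p-value is given for a member. Which members passed the threshold of a test over all genes is stated below, but this adds no independent evidence. All 10 passed the filter on low counts and were among the 14542 genes tested.

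The RNA-seq compared BAT of 3 mice lacking sST2 (sST2-KO) with that of 3 WT littermates. All 6 were male C57BL/6J mice, 10 weeks old, and all had undergone surgical BAT denervation and then 8 h at 10 °C, so no sham-operated or warm-kept group is compared here. sST2, a soluble form of the IL-33 receptor ST2, is encoded by Il1rl1, and the sST2-KO line lacks an intron of Il1rl1 in the whole body, removed by CRISPR/Cas9 to deplete sST2 and keep the receptor form. The comparison asks how denervated BAT of mice without sST2 differs after cold exposure.

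Macrophages that sense microbial products or tissue damage switch on a shared set of genes through NF-kB, C/EBP and interferon-induced factors. This set makes nitric oxide from arginine, itaconate in the mitochondria, prostaglandin E2 and tumor necrosis factor, together with acute phase proteins and receptors for damaged cells. In adipose tissue such macrophages are known from obesity and injury, but several of these genes are also made by neutrophils, adipocytes, fibroblasts or hepatocytes.

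The promoters of the members were searched for letters that such factors are known to bind, since 9 of the 10 members had higher mean levels in sST2-KO BAT. RefSeq sequences (GRCm38.p6) were matched by symbol for 8 members, all except Nos2 and Slc7a2. The window searched was the 250 bases before the start of the gene. The letters TTGCNNAA, a core of the C/EBP site searched on both strands, were present in 4 of the 8, namely Ptgs2, Saa3, Lcn2 and Clec4e, and in 9.56% of all 32851 promoters of that length. The 250 bases before the start of each of these 4 genes are shown because they carry these letters, written 5′ to 3′ on the strand of the gene, with the match in capitals.
Ptgs2 (chr1:150099781-150100030, plus strand): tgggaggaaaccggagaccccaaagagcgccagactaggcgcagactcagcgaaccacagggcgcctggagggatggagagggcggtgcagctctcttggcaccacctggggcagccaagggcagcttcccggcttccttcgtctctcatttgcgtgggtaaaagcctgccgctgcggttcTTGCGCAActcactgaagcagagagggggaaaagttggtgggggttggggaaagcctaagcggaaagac
Saa3 (chr7:46715677-46715926, minus strand): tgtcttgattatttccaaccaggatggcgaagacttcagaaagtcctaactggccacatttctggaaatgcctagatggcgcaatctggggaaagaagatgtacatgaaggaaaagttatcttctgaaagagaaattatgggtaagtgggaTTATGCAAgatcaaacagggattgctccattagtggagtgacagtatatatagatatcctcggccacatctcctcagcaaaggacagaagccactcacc
Lcn2 (chr2:32387740-32387989, minus strand): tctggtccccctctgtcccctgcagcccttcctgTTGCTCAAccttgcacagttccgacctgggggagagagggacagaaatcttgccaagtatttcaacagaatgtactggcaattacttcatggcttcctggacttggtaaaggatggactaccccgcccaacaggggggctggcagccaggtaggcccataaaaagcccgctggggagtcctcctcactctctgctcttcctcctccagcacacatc
Clec4e (chr6:123289872-123290121, minus strand): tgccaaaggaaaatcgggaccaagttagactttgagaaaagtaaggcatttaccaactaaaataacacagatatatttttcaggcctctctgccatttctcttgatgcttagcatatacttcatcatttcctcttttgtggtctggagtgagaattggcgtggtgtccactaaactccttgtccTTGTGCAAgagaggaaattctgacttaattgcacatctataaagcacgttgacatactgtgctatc

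The match lay 69 to 62 bases before the start in Ptgs2, where the letters TTGCGCAA read the same on both strands. In Lcn2 it lay 216 to 209 bases before the start, on the strand of the gene. In Saa3 it lay 99 to 92 bases before the start and in Clec4e 66 to 59 bases before it, both on the opposite strand. The NF-kB consensus was found in 0 of the 8 windows and in 3.9% of all promoters, and no match says only that this string of letters is not in the window. The letters TGANTCA (AP-1) were likewise in 0 of 8 and in 6.75% of all promoters, and GAAANNGAA (IRF) were in Saa3 alone and in 7.13% of all promoters. TATAAA began 28 bases before the start in Acod1 and 29 bases before it in Tnf and in Clec4e, against a share of 12.4% of all promoters. TGACGTCA (CRE) and CACGTG (E-box) were in 0 of 8, against 1.55% and 6.02% of all promoters. No match of one motif overlapped a match of another in these windows.

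The libraries held 8159442 to 12874809 counts, and levels are given as normalized CPM, counts scaled to a common library size with TMM factors. Values per library follow the order of the replicates, 1, 2 and 3, in each group. Il1rl1, the targeted gene, had 19, 19 and 6 counts in WT and 55, 69 and 142 in sST2-KO, and counts per gene do not tell the soluble form from the receptor, so they check no label. The summed brown adipocyte markers (9 genes, Ucp1 among them) were 8241 to 15538 CPM in WT and 348 to 1830.2 CPM in sST2-KO, so the tissue's own markers were present in every library. Markers of 3 other tissues stood apart in single libraries or in a group: the summed hepatocyte markers (8 genes) were 4967 CPM in WT replicate 2 and 8.36 to 47.7 CPM in the other 5, and the summed skeletal muscle markers (10 genes) were 38.6 to 1313 CPM in WT and 3566 to 15538 CPM in sST2-KO. The summed erythrocyte markers (5 genes) were 473 to 1548 CPM in WT and 10.9 to 106 CPM in sST2-KO. The part of these differences in the results below was not tested. The muscle and erythrocyte sums separated the groups as wholes, so no single library can be left out for them. In bulk tissue, fewer cells of a type and less RNA per cell cannot be told apart.

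Genes count as called here where edgeR's quasi-likelihood test over all genes gave an adjusted p under 0.05 with more than a 2-fold difference. By this rule 8 of the 10 members were called higher in sST2-KO and 0 lower, where 9.04% of all genes tested were called higher and 7.1% lower, a count that the choice of the members had used. Slc7a2 and Clec4d were not called. The lowest sST2-KO library lay above the highest WT library for 7 members, and for 21.8% of all genes tested. The 3 members whose groups overlapped were Slc7a2, Lcn2 and Clec4d. The median log2 fold change of the members was 3.65, against 0.03 over all genes tested. The number of members called was 4, 2 and 0 without WT replicates 1, 2 and 3, and 5 without sST2-KO replicate 3, while the median log2 fold change stayed between 2.67 and 4.05. Over all genes, 871 were called without WT replicate 2, 58 without WT replicate 3 and 1324 without sST2-KO replicate 3, against 2348 with all 6 libraries.

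**Figure D1:**
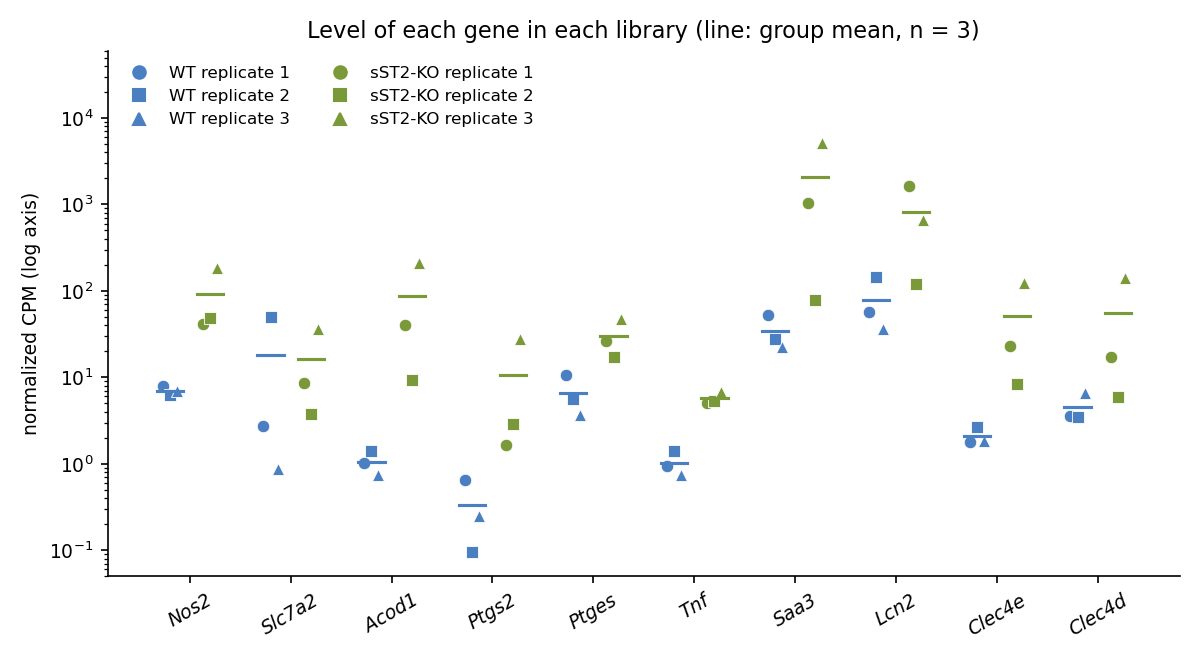
Normalized CPM (vertical axis, logarithmic) of the 10 genes in the 3 WT libraries (blue) and the 3 sST2-KO libraries (green), with a line at each group mean. sST2-KO replicate 3 (triangle) is the highest sST2-KO library for 9 of the 10 genes, and the 3 sST2-KO libraries of Tnf lie closest together.

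Nos2 encodes the inducible nitric oxide synthase, which makes nitric oxide from arginine and is the classical mark of an inflammatory mouse macrophage. It lies on chr11:78811613-78851080 (GRCm39, plus strand). Its level was 7.84, 6.22 and 7.03 CPM in WT and 41.1, 48.3 and 186 CPM in sST2-KO. Every sST2-KO library was above every WT library, and the lowest of them was 5.25 times the highest WT library. The group means were 7.03 ± 0.808 CPM in WT and 91.8 ± 81.7 CPM in sST2-KO (SD, n = 3 each), a log2 fold change of 3.70 (SE 0.62), and 2.66 without sST2-KO replicate 3. Among the members Nos2 had the smallest spread in WT, with a coefficient of variation of 11.5%, and 89.0% in sST2-KO.

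Slc7a2 encodes a cationic amino acid transporter that brings arginine, the substrate of Nos2, into the cell, and it is abundant in liver as well as induced in macrophages. It lies on chr8:41315431-41375345 (GRCm39, plus strand). It had 2.71, 50.3 and 0.863 CPM in WT and 8.64, 3.8 and 35.8 CPM in sST2-KO. The highest of all 6 libraries was thus WT replicate 2, and the groups overlapped. The log2 fold change was -0.16 (SE 1.33), the only one of the 10 below 0, and it was 3.13 without WT replicate 2, in which the summed hepatocyte markers were 4967 CPM. Without that library, the lowest sST2-KO value (3.8 CPM) lay above the highest WT value (2.71 CPM). Over the remaining libraries the summed skeletal muscle markers had the same order as Slc7a2, from 38.6 CPM in WT replicate 3 to 15538 CPM in sST2-KO replicate 3. The summed macrophage markers had that order too, from 1038 to 7604 CPM. The part of muscle or macrophage content in the level of Slc7a2 was not tested.

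Acod1 encodes the enzyme that makes itaconate from cis-aconitate, a metabolite that restrains succinate dehydrogenase and inflammatory signaling. It lies on chr14:103284413-103294009 (GRCm39, plus strand). Its counts were 11, 15 and 6 in WT and 584, 78 and 2141 in sST2-KO, which are 1.03, 1.41 and 0.74 CPM and 40.7, 9.26 and 211 CPM. Every sST2-KO library was above every WT library, but the 3 sST2-KO libraries spanned 22.8-fold. The means were 1.06 ± 0.338 CPM and 87.1 ± 109 CPM (SD, n = 3 each), a log2 fold change of 6.32 (SE 1.21), which ranked 5 among the 14542 genes by size of rise. It was 4.52 when sST2-KO replicate 3 was left out.

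Ptgs2, or cyclooxygenase-2, makes the prostaglandin H2 that Ptges, the microsomal prostaglandin E synthase, turns into prostaglandin E2. Ptgs2 lies on chr1:149975194-149983978 (plus strand) and Ptges on chr2:30779483-30820196 (minus strand), both in GRCm39. Ptgs2 had 7, 1 and 2 counts in WT and 24, 24 and 278 in sST2-KO, or 0.653, 0.0942 and 0.247 CPM against 1.67, 2.85 and 27.5 CPM. Every sST2-KO library was above every WT library, with WT values near the limit of detection and sST2-KO replicate 3 far above the other two. The log2 fold change was 4.93 (SE 1.30), and 2.68 without sST2-KO replicate 3. Ptges had 10.5, 5.56 and 3.7 CPM in WT and 26.5, 17.0 and 47.1 CPM in sST2-KO. Its groups were also apart, but its means of 6.60 ± 3.54 and 30.2 ± 15.4 CPM (SD, n = 3 each) gave a log2 fold change of only 2.18 (SE 0.49), the smallest of the 8 genes called.

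Tnf encodes the cytokine that starts and amplifies much of this response. It lies on chr17:35418357-35420983 (GRCm39, minus strand). It had 0.933, 1.41 and 0.74 CPM in WT and 5.02, 5.34 and 6.81 CPM in sST2-KO. The groups were apart, and the 3 sST2-KO libraries differed by only 1.36-fold, the narrowest range of the 10 genes in that group. The means were 1.03 ± 0.347 and 5.72 ± 0.957 CPM (SD, n = 3 each) and the log2 fold change was 2.45 (SE 0.37). It was between 2.27 and 2.74 when any 1 library was left out.

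Saa3 encodes an acute phase serum amyloid A made outside the liver, by macrophages and adipocytes. It lies on chr7:46361422-46365576 (GRCm39, minus strand). Its level was 53.3, 27.4 and 22.2 CPM in WT and 1044, 79.4 and 5159 CPM in sST2-KO. The groups did not overlap, yet sST2-KO replicate 2 was only 1.49 times the highest WT library, and the sST2-KO libraries spanned 65.0-fold, the widest range of the 10. The means were 34.3 ± 16.6 and 2094 ± 2698 CPM (SD, n = 3 each), a log2 fold change of 5.93 (SE 1.39) with the rank 11 of 14542, and 4.01 without sST2-KO replicate 3.

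Lcn2 encodes lipocalin-2, which binds bacterial iron carriers and is made by neutrophils, macrophages, adipocytes and inflamed liver. It lies on chr2:32274645-32278264 (GRCm39, minus strand). It had 57.1, 144 and 36.0 CPM in WT and 1651, 121 and 667 CPM in sST2-KO. The groups overlapped, because sST2-KO replicate 2 lay below WT replicate 2. It was the only one of the 10 genes to be highest in sST2-KO replicate 1. Its log2 fold change was 3.36 (SE 0.94), 4.12 without WT replicate 2 and 2.31 without sST2-KO replicate 1.

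Clec4e (Mincle) and Clec4d are C-type lectin receptors that recognize mycobacterial glycolipids, and Clec4e also senses a protein released from dying cells. They are neighbors on chromosome 6 (GRCm39), Clec4d at chr6:123239070-123252230 on the plus strand and Clec4e at chr6:123258748-123266829 on the minus strand, with 6517 bases between them. Clec4e had 1.77, 2.64 and 1.85 CPM in WT and 23.2, 8.31 and 123 CPM in sST2-KO. Its groups were apart, with a log2 fold change of 4.62 (SE 1.00), and 2.90 without sST2-KO replicate 3. Clec4d had 3.54, 3.49 and 6.66 CPM in WT and 17.4, 5.93 and 142 CPM in sST2-KO. Its groups overlapped, since sST2-KO replicate 2 lay below WT replicate 3, and its log2 fold change was 3.60 (SE 1.10), falling to 1.36 without sST2-KO replicate 3. Both lectins had the same order in sST2-KO, with replicate 3 highest and replicate 2 lowest.

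**Figure D2:**
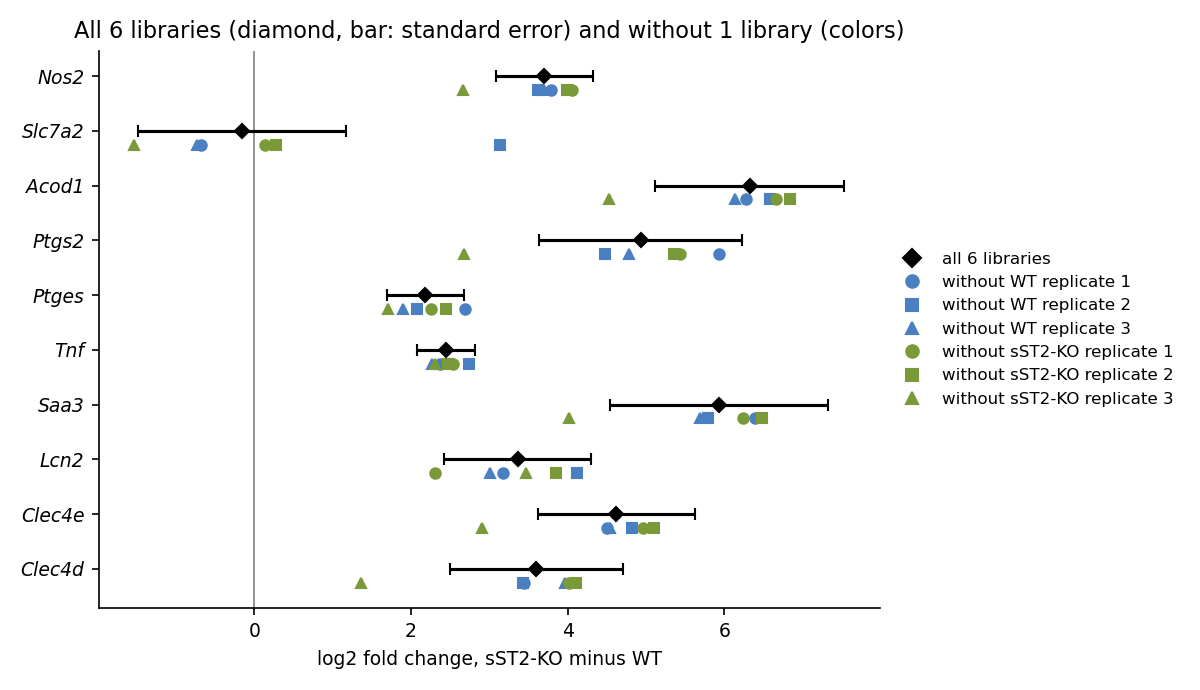
Log2 fold change of sST2-KO over WT (horizontal axis) for each gene, from all 6 libraries (black diamond, bar of 1 standard error) and after leaving out any 1 library (colored points). Leaving out sST2-KO replicate 3 gives the lowest value for 8 of the 10 genes, among them Clec4d at 1.36, and leaving out WT replicate 2 moves Slc7a2 from -0.16 to 3.13.

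The members shared much of their order among the sST2-KO libraries. Replicate 3 was the highest sST2-KO library for 9 members and for 36.3% of all genes tested, replicate 1 for Lcn2 alone, and replicate 2 was the lowest for 7. Among the WT libraries, replicate 3 was the lowest for 6 members. After the group means were removed, the log2 CPM of the 45 pairs of members had a median Pearson correlation of 0.63 over the 6 libraries, from -0.09 to 0.99, and 44 of them were above 0. These are descriptions over 6 libraries that share scaling and tissue makeup, with no value for pairs of other genes beside them. The highest was between Acod1 and Clec4e. Each member was also set against the mean of the other members, with itself left out. This correlation was highest for Acod1 (0.99), Clec4e (0.97) and Saa3 (0.91) and lowest for Lcn2 (0.51), Slc7a2 (0.55) and Tnf (0.59).

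Per length of the canonical transcript, the members covered a wide range of abundance. Lcn2 and Saa3 were the highest in each of the 6 libraries. In WT they had 86.3 ± 62.4 and 34.1 ± 16.5 CPM per kilobase (RPKM; SD, n = 3), a difference smaller than the spread of Lcn2 among the 3 mice. Clec4d followed at 3.43 ± 1.36 RPKM, then Slc7a2 at 2.27 ± 3.54, Ptges at 1.79 ± 0.958 and Nos2 at 1.68 ± 0.193, which lay within each other's spread. The place of Slc7a2 rested on WT replicate 2, since its values were 0.341, 6.35 and 0.109 RPKM, the ninth, the third and the ninth of the 10. Clec4e (0.829 ± 0.19), Tnf (0.628 ± 0.212) and Acod1 (0.404 ± 0.129) came next, and Ptgs2 was lowest at 0.0698 ± 0.0608 RPKM. In sST2-KO the mean order was Saa3 (2079.7 ± 2679.0), Lcn2 (888 ± 847), Clec4d (41.4 ± 56.6), Acod1 (33.2 ± 41.5), Nos2 (21.9 ± 19.5), Clec4e (20.5 ± 24.9), Ptges (8.17 ± 4.17), Tnf (3.49 ± 0.584), Ptgs2 (2.25 ± 3.07) and Slc7a2 (2.03 ± 2.18). Acod1 thus went from the ninth to the fourth place, but the neighbors in this order were not separated beyond their spread. Within the single libraries its place was the third, the sixth and the fourth in sST2-KO.

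Markers of myeloid and of other cells moved with these genes. The 12 macrophage markers summed to 1334, 1279 and 1038 CPM in WT and to 2012, 1945 and 7604 CPM in sST2-KO, and 4 of the 12 were called higher. All 12 were highest among the sST2-KO libraries in replicate 3, the same library as 9 of the members. This excess was not particular to myeloid markers. The 8 fibroblast markers summed to 6112, 1962 and 2267 CPM in WT and to 1139, 2226 and 10049 CPM in sST2-KO, with overlapping groups. All 8 were highest among the sST2-KO libraries in replicate 3. Their sum there was 5.97 times the mean of replicates 1 and 2, against 3.84 times for the macrophage markers. The 10 skeletal muscle markers and 5 of the 6 mast cell markers were also highest there. The 5 monocyte markers summed to 71.5 to 159.6 CPM in WT and to 348, 657 and 1264 CPM in sST2-KO. The 13 neutrophil markers summed to 47.7, 34.9 and 166 CPM in WT and to 586, 169.6 and 803 CPM in sST2-KO, with 5 of 13 called, and 7 of the 13 were highest in sST2-KO replicate 1, as Lcn2 was. Ly6g, a defining neutrophil marker named after its values were seen, had 22, 10 and 27 counts in sST2-KO and 0 to 7 in WT. It was not called (adjusted p = 0.087 in edgeR's quasi-likelihood test). The groups overlapped for S100a8, S100a9, Retnlg, Ltf, Camp, Ngp and Elane, and Elane alone had a negative log2 fold change (-0.13). The 6 T cell markers listed summed to 12.1 to 13.6 CPM in WT and to 104 to 129.6 CPM in sST2-KO, without the large excess in replicate 3.

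**Figure D3:**
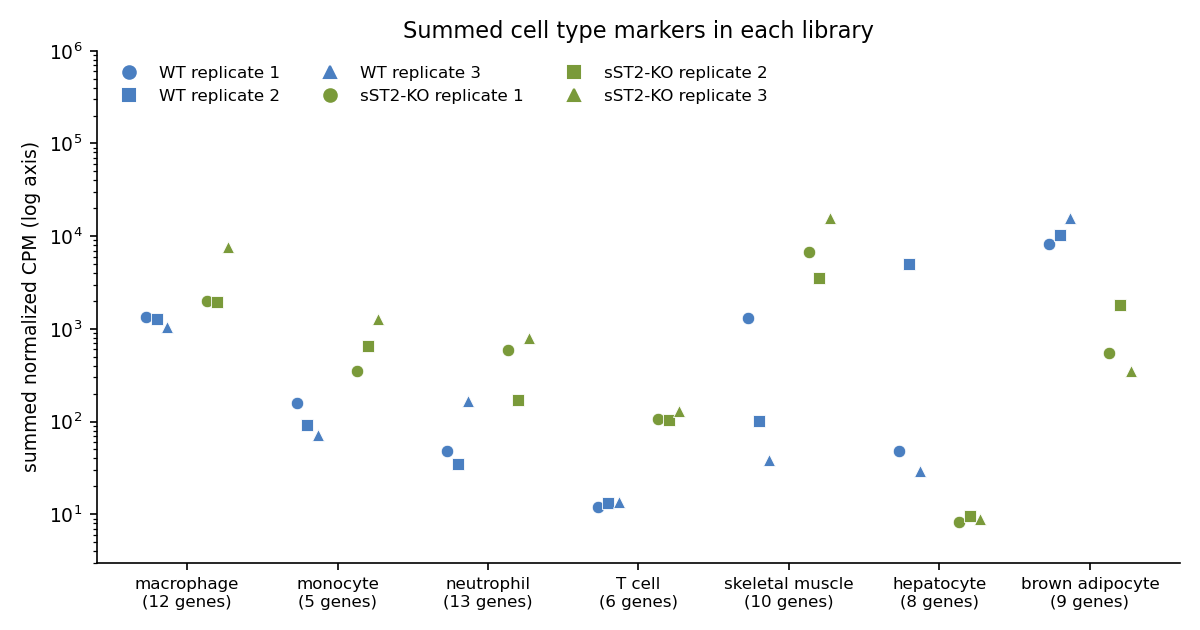
Summed normalized CPM (vertical axis, logarithmic) of the markers of 7 cell types in the 3 WT (blue) and 3 sST2-KO (green) libraries. The macrophage sum of sST2-KO replicate 3 stands at 7604 CPM above the other two at 2012 and 1945, and the hepatocyte sum of WT replicate 2 at 4967 CPM is apart from the other 5 libraries.

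Each member was then set against the summed macrophage markers of its own library, as CPM per 1000 CPM of markers. On this scale Nos2 was 5.87, 4.86 and 6.77 in WT and 20.4, 24.8 and 24.5 in sST2-KO. The excess of sST2-KO replicate 3 in Nos2 was not present on this scale, and the groups were still apart, with means of 5.83 ± 0.953 and 23.2 ± 2.44 (SD, n = 3 each). Acod1 was 0.769, 1.1 and 0.712 in WT and 20.2, 4.76 and 27.8 in sST2-KO, with the groups apart as well. Saa3 was 39.9, 21.4 and 21.4 in WT and 519, 40.8 and 679 in sST2-KO, so that replicate 2 came next to the WT range. Tnf was 0.699, 1.1 and 0.712 in WT and 2.49, 2.75 and 0.896 in sST2-KO, and here replicate 3 fell within the WT range. In all, the sST2-KO libraries lay above the WT libraries for 5 of the 10 genes, namely Nos2, Acod1, Ptgs2, Saa3 and Clec4e. Against the summed neutrophil markers this was the case for Acod1 alone. The share of all genes apart in this way was not worked out on either scale, so both counts stand without a background. Lyz2, itself called higher, supplied 265 to 352 CPM of the macrophage sum in WT and 709.7, 585 and 3383 CPM in sST2-KO. The groups overlapped for Csf1r, Mertk, Cd14, C1qa, C1qb and C1qc, and were apart for the other markers of that list. The macrophage sum is thus not a count of macrophages. The part of macrophage or neutrophil content in the levels was not tested.

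**Figure D4:**
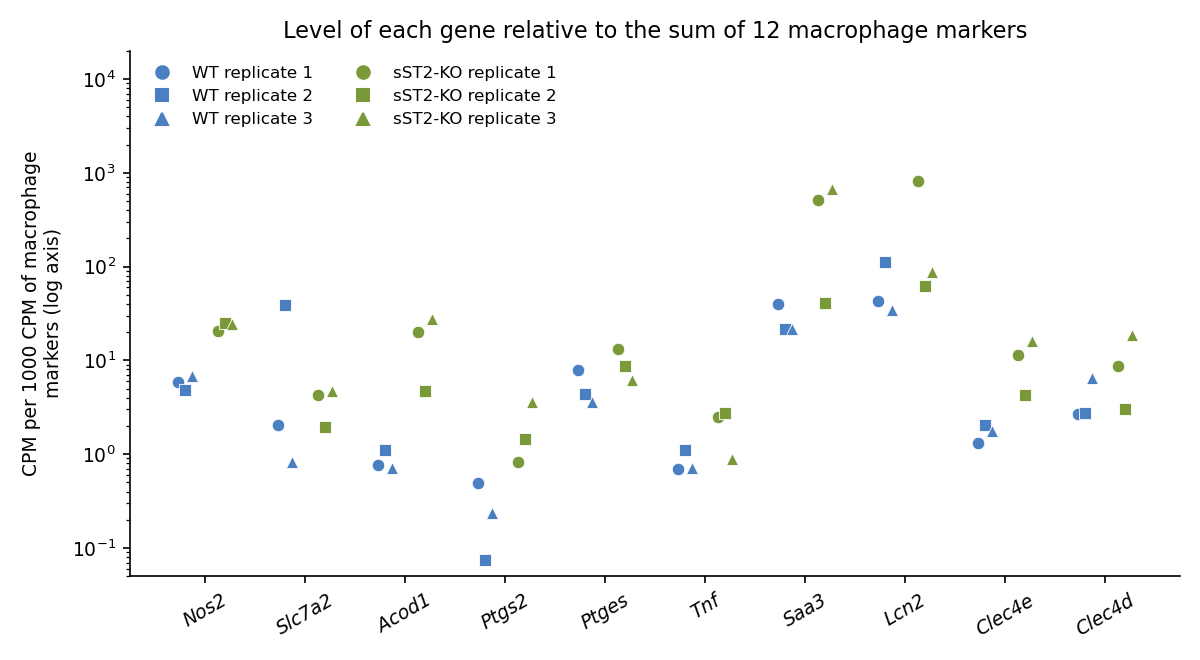
Level of each gene per 1000 CPM of the summed 12 macrophage markers of the same library (vertical axis, logarithmic), in WT (blue) and sST2-KO (green). The 3 sST2-KO libraries of Nos2 lie together at 20.4 to 24.8, and sST2-KO replicate 3 of Tnf falls to 0.896, within the WT range.

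Other genes of the same pathways were taken from 9 lists that hold none of the members and were written with earlier results of these data known. Of the 133 listed genes, 123 were tested, 41 were called higher and 14 lower, and the median log2 fold change was 0.87. The 55 called genes became 26 without WT replicate 2 and 2 without WT replicate 3. The lists differed widely, as described in turn, and each adjusted p is from edgeR's quasi-likelihood test over all 14542 genes.

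Of the inflammatory cytokines, chemokines and surface genes of classical activation, 15 of the 17 tested were called higher and 0 lower (median log2 fold change 3.62). The chemokines Cxcl2 and Cxcl3 attract neutrophils. Cxcl2 had 2.24, 3.58 and 0.74 CPM in WT and 43.8, 16.6 and 405 CPM in sST2-KO (log2 fold change 6.11, SE 1.33, adjusted p = 0.0231), and its log2 fold change was 3.74 when sST2-KO replicate 3 was left out. Cxcl3 had 1, 2 and 0 counts in WT, at the floor of detection, and 65, 28 and 1252 counts in sST2-KO (adjusted p = 0.0282). As with most members, both were highest in sST2-KO replicate 3. The list had 6 called genes without WT replicate 2, 0 without WT replicate 3 and 14 without sST2-KO replicate 3, with a median between 3.19 and 4.21. The tested genes of the list that were not called were Cd86, a costimulatory receptor, and Marco, a scavenger receptor, both picked for mention after their values were seen.

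NF-kB regulators and feedback genes gave 9 of 19 called higher and 0 lower, with a median of 1.25, and 2 called without WT replicate 3. Tnfaip3 (A20), which shuts NF-kB signaling off, had 11.1, 12.1 and 6.9 CPM in WT and 102, 61.3 and 113 CPM in sST2-KO (log2 fold change 3.20, SE 0.32, adjusted p = 0.009). Ier3, an early response gene, rose by a log2 fold change of 3.15 (SE 0.27, adjusted p = 0.00823). Like Tnf, these feedback genes had similar levels in the 3 sST2-KO libraries, in contrast to Acod1 and Saa3. Sod2, the mitochondrial superoxide dismutase that NF-kB induces, had the largest difference in the other direction (log2 fold change -0.42, SE 0.36, adjusted p = 0.444). Of the C/EBP factors, whose letters stand in the promoters printed above, Cebpb had 182 to 262 CPM in WT and 159 to 357 CPM in sST2-KO (adjusted p = 0.933), and Cebpd had 41.9 to 53.7 CPM in WT and 57.7 to 108 CPM in sST2-KO (log2 fold change 0.92, adjusted p = 0.0474, below the 2-fold limit). Both were named after their values were seen.

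The C-type lectins of the family of Clec4e and their signaling genes gave 8 of 11 called higher and 0 lower, with a median of 1.97. Clec4a2, a lectin with an inhibitory motif encoded in the same region of chromosome 6 as Clec4d, had 5.05 to 12.6 CPM in WT and rose to between 28.8 and 102 CPM in sST2-KO (log2 fold change 2.77, SE 0.52, adjusted p = 0.0168). Clec7a (Dectin-1), the receptor for fungal glucans, rose by 2.61 (SE 0.52, adjusted p = 0.0187). All 11 tested genes had every sST2-KO library above every WT library. The number called was 1 without WT replicate 2, 0 without WT replicate 3 and 6 without sST2-KO replicate 3.

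The TNF and eicosanoid lists had shares of called genes near those of all genes (9.04% higher, 7.1% lower). In the TNF pathway, only Ltb, which encodes lymphotoxin beta, was called among 9 tested genes (log2 fold change 1.85, SE 0.37, adjusted p = 0.0195), and 0 without WT replicate 2 or 3 or sST2-KO replicate 3, while the receptor gene Tnfrsf1b (1.23, adjusted p = 0.0782) and the adaptor gene Traf2 (-0.10, adjusted p = 0.812) were not. Of the 19 eicosanoid genes 2 were called higher and 2 lower. Alox5ap, the 5-lipoxygenase activating protein, rose by 1.93 (SE 0.48, adjusted p = 0.0326), and by 1.12 without sST2-KO replicate 3. Pla2g4a, the phospholipase that frees arachidonic acid for Ptgs2, had 1.23 to 4.85 CPM in WT and 4.53 to 21.9 CPM in sST2-KO (adjusted p = 0.0721), and Ptgds, a prostaglandin D synthase, had a log2 fold change of -1.78 (adjusted p = 0.137). Ptgs1, the constitutive counterpart of Ptgs2, had 5.42 to 11.1 CPM in WT and 7.24 to 12.2 CPM in sST2-KO (adjusted p = 0.683), and Ptges2, another prostaglandin E synthase, fell by 1.77 on the log2 scale (SE 0.28, adjusted p = 0.0141), both named after their values were seen.

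Around Nos2 and Slc7a2, 1 of the 13 genes of arginine and nitric oxide metabolism was called higher and 2 lower. Asl, which returns citrulline to arginine, fell by 2.87 on the log2 scale (SE 0.51, adjusted p = 0.0158), from 58.5, 189 and 270.5 CPM in WT to 23.7, 25.2 and 22.2 CPM in sST2-KO. The arginase gene Arg2 (2.05, SE 0.63, adjusted p = 0.0575) and the neuronal synthase gene Nos1 (1.23, SE 0.42, adjusted p = 0.0776) had the largest positive differences but were not called. Around Acod1, 2 of 16 genes were called higher and 8 lower, with 4 lower without WT replicate 2 and 0 without WT replicate 3. The genes that fell included all 4 subunits of succinate dehydrogenase, the enzyme that itaconate inhibits, with log2 fold changes of -1.80 (Sdha), -1.93 (Sdhb), -1.33 (Sdhc) and -1.74 (Sdhd) and adjusted p from 0.0147 to 0.0219, named after their values were seen. These are mitochondrial genes that brown adipocytes also express, and the summed brown adipocyte markers were lower in the same libraries. The part of that in these falls was not tested. Hif1a and the glucose transporter gene Slc2a1 rose, by 1.81 (SE 0.43, adjusted p = 0.0292) and 1.56 (SE 0.33, adjusted p = 0.022). Neither was called when any 1 WT library was left out, or without sST2-KO replicate 3 (1.25 and 1.30). Hif1a was also not called without sST2-KO replicate 2.

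Of the acute phase and siderophore genes, 1 of the 8 tested was called higher and 2 lower, against 9.04% and 7.1% of all genes, with a median of -1.77. Without WT replicate 2, the library with 4967 CPM of summed hepatocyte markers, 0 were called in either direction and the median was 0.29. The called rise was Fpr1, a receptor for formyl peptides on neutrophils and macrophages, at 1.03 to 2.47 CPM in WT and 19.2, 2.02 and 77.0 CPM in sST2-KO (log2 fold change 4.43, SE 1.18, adjusted p = 0.0385). Its groups overlapped, its log2 fold change was 2.80 without sST2-KO replicate 3, and the call was lost when any 1 library other than sST2-KO replicate 2 was left out. Hp, haptoglobin, had a log2 fold change of 0.27 (SE 0.49, adjusted p = 0.729). Orm2, made in liver, had 0.84, 54.1 and 1.11 CPM in WT and 0.593 to 1.18 CPM in sST2-KO, and its log2 fold change of -4.20 was 0.05 without WT replicate 2. The liver forms Saa1 and Saa2 are near-identical copies, and how reads that fit both were counted is not given in the sources used here. Both genes were also highest in WT replicate 2, at 152 and 77.4 CPM, where Saa3 had 27.4 CPM. They were named after their values were seen.

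**Figure D5:**
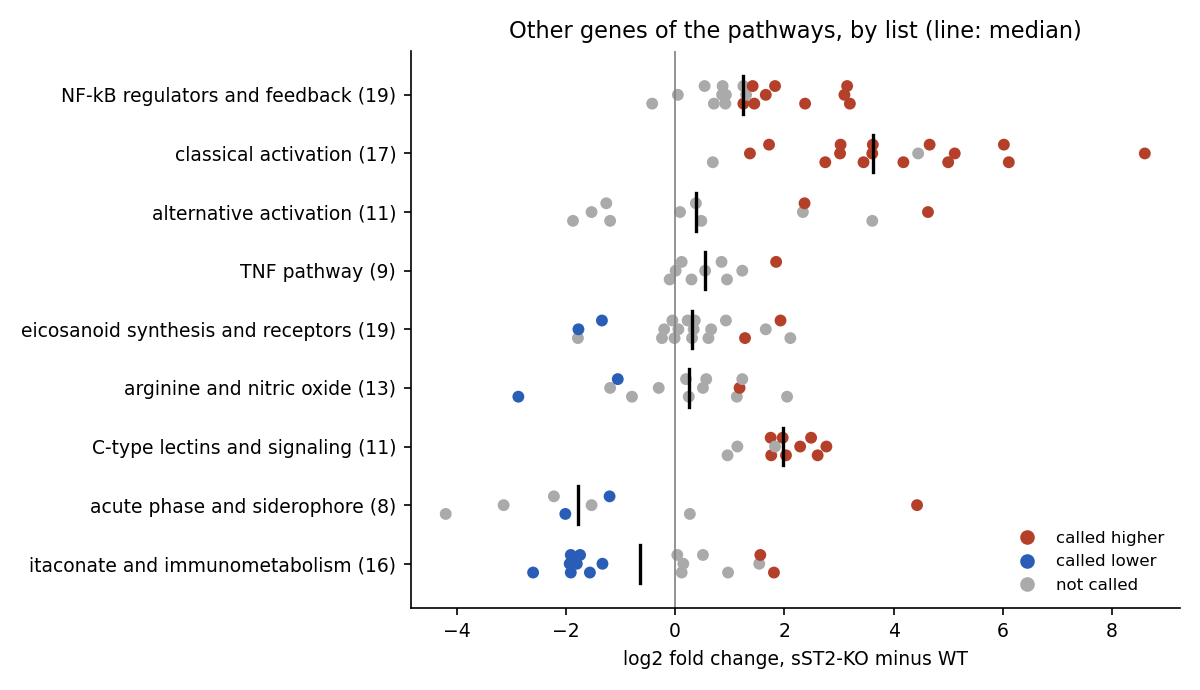
Log2 fold change of sST2-KO over WT (horizontal axis) for each tested gene of 9 pathway lists, with called genes in red (higher) or blue (lower), the others in grey and a black line at the median of the list. Classical activation lies furthest to the right with a median of 3.62 and 15 of 17 called higher, and the itaconate list has 8 genes called lower.

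The genes whose pattern was most like the members' were found by Pearson correlation of log2 CPM with the mean log2 CPM of the 10, among tested genes whose log2 CPM averaged at least 2. Over the 6 libraries these were Cxcl2 (0.995), Twf2 (0.994), Arrb2 (0.993), Stk24 (0.993) and Txlnb (0.993). After the group means were removed they were the macrophage marker Adgre1 (0.999), Fam173a (0.996), Gsr (0.994), Rasl11a (0.994) and Pde1b (0.992). Adgre1, which encodes F4/80, had 29.9, 35.9 and 21.0 CPM in WT and 77.6, 38.0 and 244 CPM in sST2-KO, with the same order of the sST2-KO libraries as Slc7a2, Acod1, Ptges, Saa3, Clec4e and Clec4d. No gene appeared in both groups of 5. A high correlation did not go with a called difference for Stk24, Adgre1, Fam173a, Rasl11a and Pde1b. The log2 fold change was 0.53 for Stk24 (adjusted p = 0.0753 in edgeR's quasi-likelihood test). By the same test it was -0.28 for Fam173a (adjusted p = 0.366) and 0.31 for Rasl11a (adjusted p = 0.672). These correlations are descriptions over 6 libraries that share scaling and tissue makeup, and they are the highest of many genes.

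Some members share exon bases with a noncoding gene on the opposite strand in GRCm39, namely Nos2 with Gm71838 (97 bases), Acod1 with Gm41235 (247 bases), Ptgs2 with Ptgs2os (476 bases) and Ptges with Gm74745 (317 bases). Whether the counting used the strand is not given in the sources used here, so reads from these bases cannot be told apart by gene. Gm41235 had at most 14 counts in a library, where Acod1 had up to 2141, and Ptgs2os had at most 3, where Ptgs2 had up to 278.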

How the data were processed

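The authors sequenced poly-A-selected BAT libraries as paired-end reads, aligned them to mm39 with HISAT2 (2.2.1 in the submitters' processing notes, with FastQC 0.12.1) and used htseq-count for the reads of each gene. These raw counts were deposited by gene symbol, without normalization, and 0 per-sample columns were left unused. Libraries were grouped by their titles. In R 4.3.3, edgeR 4.0.16 kept 14542 genes by filterByExpr, scaled them by TMM and fitted sST2-KO against WT by the quasi-likelihood test with no covariate, adjusting by Benjamini-Hochberg. Calls needed an adjusted p under 0.05 and a fold above 2. A standard error is the log2 fold change divided by the square root of F. The log2 CPM used for correlations had a prior count of 2.

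The members and the lists were chosen with earlier results of these data known. The rule for other named genes took from each list the 2 largest rises and the largest fall, and the 5 genes most like the members by each measure. The result of 1 gene that this rule names is not reported here. Coordinates and lengths are from GRCm39 (GENCODE), promoters from RefSeq. DESeq2 1.42.0, RLE factors, total counts, other filters, the replicate block and each library left out were the alternatives. The steps were tested on simulated counts. Libraries of a group differed by a chi-square of at least 36.6 per degree of freedom, which a single library deposited again would not show. Each p-value sets the difference between the groups against the spread between these mice, estimated with information shared across genes. An exact permutation test of 3 against 3 cannot give a p below 0.1, so none was used for single values. Figures were drawn with matplotlib 3.10.9.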

Additional observations from a re-analysis of the deposited data

How the results depend on the processing

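The calls depended on which libraries entered, and the directions less so. Of the 10 members, 8 were called higher with all 6 libraries, and from 0 to 9 when 1 library was left out: 4 without WT replicate 1, 2 without WT replicate 2, 0 without WT replicate 3 and 5 without sST2-KO replicate 3, with the median log2 fold change between 2.67 and 4.05. The count was 9 with DESeq2, with no filter and with total counts (which moved the median of all genes to 0.29), 8 with RLE factors and 5 of the 6 left by a minimum of 10 counts in every library. Leaving out 1 library gave 2 to 58 called genes of the pathway lists (55 with all 6; 26 without WT replicate 2 and 2 without WT replicate 3), 36 to 1383 genes called higher in all (1315 with all 6) and 22 to 998 called lower (1033 with all 6). Without WT replicate 2 these were 391 and 480, without WT replicate 3 36 and 22, and without sST2-KO replicate 3 683 and 641.

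With the replicate number as a block, 0 members, 0 genes of the pathway lists, 0 genes higher and 0 lower were called, with a median of 3.28 over the members. The numbers mark no shared litter or day in the labels, and the correlations of same-numbered deviations were -0.06, 0.21 and -0.31, so the replicate block was not taken as a pairing.

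The sign changed for Slc7a2 (1.2 with the replicate block, 0.12 with total counts, and -1.53 to 3.13 without 1 library), Traf2 (0.16 with total counts, and -0.35 to 0.09 without 1 library), Hp (-0.34 to 0.54), Orm2 (-4.77 to 0.05) and Rasl11a (-0.32 to 0.6), the last 3 only without 1 library. The cause was not tested. Low counts limit Ptgs2, with 1 to 7 counts in WT.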

Other observations

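Genes of alternative macrophage activation, the state that interleukins 4 and 13 induce, were a list of their own, also written with earlier results known. Of its 11 tested genes 2 were called higher and 0 lower (median log2 fold change 0.38). The number called higher was 2 without WT replicate 2, 0 without WT replicate 3 and 2 without sST2-KO replicate 3. The median was 0.2, 0.18 and -0.73 in turn, so its sign changed without sST2-KO replicate 3. Chil3, a chitinase-like protein made by macrophages and neutrophils, rose from 29.5, 8.58 and 10.7 CPM in WT to 373, 287 and 552 CPM in sST2-KO (log2 fold change 4.63, SE 0.56, adjusted p = 0.01 in edgeR's quasi-likelihood test). The other called gene was Il10, which encodes an anti-inflammatory cytokine (log2 fold change 2.37, SE 0.47, adjusted p = 0.0188), named after its values were seen. Ccl24, an eosinophil-attracting chemokine, had 0.28, 2.17 and 0.247 CPM in WT and 0.0697, 26.9 and 7.6 CPM in sST2-KO, with overlapping groups (log2 fold change 3.61, SE 1.52, adjusted p = 0.132). Its order among the sST2-KO libraries, with replicate 2 highest, was unlike that of any of the 10 inflammatory genes. Mgl2, a galactose-binding lectin of resident macrophages, had every sST2-KO library below every WT library without being called (log2 fold change -1.87, SE 0.62, adjusted p = 0.0708).

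Further genes of this list were named after their values were seen. Retnla, a secreted protein that marks alternatively activated mouse macrophages, had 4.48, 4.43 and 5.67 CPM in WT and 0.767, 2.49 and 1.88 CPM in sST2-KO, with every sST2-KO library below every WT library (log2 fold change -1.53, SE 0.45, adjusted p = 0.0523). Pdcd1lg2, a ligand of the receptor PD-1 that did not pass the filter on low counts, had 0, 2 and 1 counts in WT and 10, 63 and 65 counts in sST2-KO. Mrc1, the mannose receptor, had 40.9 to 108 CPM in WT and 41.0 to 142 CPM in sST2-KO (adjusted p = 0.536). Arg1, the arginase that competes with Nos2 for arginine and is also a liver enzyme, had 5.13, 85.3 and 0.986 CPM in WT and 20.0, 80.6 and 363 CPM in sST2-KO, so that WT replicate 2, the library with 4967 CPM of summed hepatocyte markers, set the overlap. The log2 fold change of Arg1 was 2.34 (adjusted p = 0.302) and 5.61 without that library.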
